A study of Mus musculus with 4 samples.

Results

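The transcription factor genes Zic1, Zic2, Zic4, Pax6, Barhl1 and Meis1 were followed through the cells of 4 mouse medulloblastomas, as 6 of the 15002 genes in the count tables. They were taken by name, as factors that mark the cerebellar granule lineage, and all 6 had UMIs in every tumour. Each tumour was taken at postnatal day 16, without treatment, from a mouse that carried hGFAP-Cre and SmoM2 and was homozygous for floxed alleles of 2 genes (Prkaa1fl/fl and Prkaa2fl/fl). Cre under the human GFAP promoter acts in neural progenitors that give rise to both neurons and glia. SmoM2, which it switches on, is an activated form of the Sonic hedgehog (SHH) transducer Smoothened, and the floxed genes that it recombines encode the catalytic subunits of AMP-activated protein kinase. Every mouse carried every allele, and the labels hold no group of another genotype, so the comparisons are between cells within these tumours.

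Granule neuron progenitors arise in the rhombic lip, divide in the outer layer of the young cerebellum under SHH and then migrate inwards as postmitotic granule neurons. SHH-driven medulloblastomas form from these progenitors when they fail to stop dividing. Zic1, Zic2 and Zic4 encode zinc finger proteins of 1 family, and loss of Zic1 and Zic4 function is known to reduce the size of the cerebellum. Pax6 encodes a paired-box and homeodomain protein needed for the rhombic lip lineages, Barhl1 a BarH-like homeodomain protein needed for granule cell migration and survival, and Meis1 a TALE-class homeodomain protein that works with Pax6 in granule progenitors.

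The libraries were made by Drop-seq, which counts the 3′ ends of transcripts as unique molecular identifiers (UMIs) per droplet barcode. Of 6734 barcodes, the 3222 with at least 500 UMIs were taken as cells (766, 807, 566 and 1083 in tumours 1 to 4, with medians of 749 to 972 UMIs), and no kept barcode was shared between libraries. Mitochondrially encoded transcripts took 12.1%, 12.7%, 2.68% and 2.13% of the UMIs of tumours 1 to 4, so the first and the last pair of libraries stand apart. Prkaa1 had 3 to 16 UMIs per tumour and Prkaa2 had 5 to 14, and since 3′ counts do not show which part of a transcript remained, they do not check the deletion.

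A cell was called dividing with UMIs of at least 3 distinct markers out of 22 S-phase and 30 G2 and mitosis genes and at most 2 of 28 neuronal genes. It was called neuronal under the reverse condition. This gave 423 dividing cells (80 to 168 per tumour) and 990 neuronal cells (185 to 310 per tumour). None of the 6 genes is among the markers. Of the cells, 1646 (51.1%) reached 3 markers of more than 1 list, and they were set apart as mixed. Their median depth by tumour was 824 to 1269 UMIs, against 637 to 825.5 in dividing and 645 to 785.5 in neuronal cells. Class sizes moved with depth. After thinning each cell to 500 UMIs, 809 cells were mixed, 852 dividing and 1166 neuronal. The class comparisons thus leave out many of the deeper cells. Among the dividing cells 56 lay at the threshold of 3 markers, as did 91 of the neuronal cells. At the other edge of the rule, 251 dividing cells had 2 neuronal markers and 301 neuronal cells had 2 dividing markers. Microglial markers summed to between 30.3 and 224 CPM (UMIs per 1000000 UMIs) in dividing sums and to between 12.7 and 121 in neuronal sums, and 4 of 15 were at 0 in each. Unipolar brush or nuclear neuron markers summed to 12.8 to 48.0 and 41.2 to 81.1. Astrocyte markers summed to 187 to 815 in dividing and 253 to 833 in neuronal sums, oligodendrocyte-lineage markers to 394 to 544 and 544 to 826, and endothelial markers to 19.2 to 60.6 and 7.50 to 59.0. Of 7 GABAergic interneuron markers, Lhx1 alone was in the tables, at 327 to 736 in dividing and 645 to 916 in neuronal sums. The part of these lists in the results was not tested.

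In GENCODE M21 (GRCm38, the build of mm10), Zic1 lies at chr9:91358058-91365810 on the minus strand and Zic4 at chr9:91362413-91389348 on the plus strand. The 2 genes overlap over 3398 bases at their 5′ parts. That overlap begins 4355 bases from the 3′ end of Zic1, and whether the authors counted by strand is not given in the sources used here, so reads inside it could be assigned to either gene. Zic2 lies at chr14:122475435-122479852 (plus strand), Pax6 at chr2:105668900-105697364 (plus), Barhl1 at chr2:28907679-28916668 (minus) and Meis1 at chr11:18879817-19018985 (minus). Pax6 overlaps the antisense gene Pax6os1, which had 6 UMIs in the kept cells. Meis1 overlaps the antisense genes Gm16140 and Gm16141, which had 37 and 26.

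The RefSeq table (GRCm38.p6) held start-site sequences for 5 of the 6 genes, all but Zic2. They run from 250 bases before to 50 after the start, and the 4 below are shown because Zic1, Zic4 and Pax6 changed between classes and Barhl1 differed between tumours. Capitals mark matches to the motifs searched on both strands, the E-boxes CAGCTG and CAGATG, the homeodomain core TAATTA and the GLI motif GACCACCCA.
Zic1, chr9:91365719-91366018, minus strand: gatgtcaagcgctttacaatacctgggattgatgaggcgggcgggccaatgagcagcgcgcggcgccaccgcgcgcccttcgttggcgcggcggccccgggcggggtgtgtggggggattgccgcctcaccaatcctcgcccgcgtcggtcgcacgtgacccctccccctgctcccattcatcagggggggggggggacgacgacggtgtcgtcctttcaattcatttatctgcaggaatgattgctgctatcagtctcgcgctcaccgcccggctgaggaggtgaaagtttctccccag
Zic4, chr9:91368722-91369021, plus strand: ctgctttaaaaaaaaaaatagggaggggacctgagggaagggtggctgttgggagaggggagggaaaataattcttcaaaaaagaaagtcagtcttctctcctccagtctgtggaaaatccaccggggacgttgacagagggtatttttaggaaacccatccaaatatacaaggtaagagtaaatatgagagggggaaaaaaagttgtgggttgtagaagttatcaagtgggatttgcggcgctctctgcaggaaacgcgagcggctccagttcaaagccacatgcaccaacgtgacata
Pax6, chr2:105668646-105668945, plus strand: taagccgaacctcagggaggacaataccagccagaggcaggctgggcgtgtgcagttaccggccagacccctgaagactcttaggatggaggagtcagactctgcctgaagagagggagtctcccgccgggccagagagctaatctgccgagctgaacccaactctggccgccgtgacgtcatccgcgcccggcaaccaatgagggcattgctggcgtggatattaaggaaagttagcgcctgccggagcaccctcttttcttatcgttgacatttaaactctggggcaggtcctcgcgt
Barhl1, chr2:28916619-28916918, minus strand: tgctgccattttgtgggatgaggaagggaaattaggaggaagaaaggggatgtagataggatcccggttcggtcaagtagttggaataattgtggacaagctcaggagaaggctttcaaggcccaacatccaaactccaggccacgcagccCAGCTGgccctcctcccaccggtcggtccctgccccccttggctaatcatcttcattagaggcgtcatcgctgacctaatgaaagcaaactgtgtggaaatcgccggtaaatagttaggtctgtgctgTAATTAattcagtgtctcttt
Zic1 had 31 CpG dinucleotides in its 300 bases, a number reached by 10.6% of the 32851 promoters in the table. Pax6 had 18, Barhl1 9 and Zic4 8, the last reached by 48.7%. The Zic1 and Zic4 start sites lie 3204 bases apart, but the Zic4 window shown is not at the first GENCODE start, which lies 6559 bases away. Barhl1 was the 1 gene of the 5 with a match, with CAGCTG 99 bases before the start shown and TAATTA 29 bases after it. Barhl1 and Pax6 each had a second start, not shown. That of Barhl1 (chr2:28912446-28912745) had 14 CpG and CAGCTG 15 bases before it. That of Pax6 (chr2:105682213-105682512) had 16 CpG and no match. These letters occur in 16.3% and 5.29% of all promoters in the table, CAGATG in 17.2% and GACCACCCA in 0.253%, and a match is a description of the sequence, not of binding.

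Zic1, Zic4 and Pax6 were lower in dividing than in neuronal cells, with neuronal means 1.90, 1.62 and 2.00 times the dividing ones, and the other 3 genes did not pass the test. Levels are CPM, a gene's UMIs per 1000000 UMIs of a tumour's summed cells, and they compare classes for 1 gene, not genes with each other, since 3′ capture differs between transcripts. Fewer cells that express a gene and less RNA per cell cannot be told apart in such sums. Over all genes, 577 of 1813 tested passed (edgeR's quasi-likelihood test with the tumour as a block, Benjamini-Hochberg adjusted p under 0.05), or 31.8%, and 14.5% were lower in dividing cells. Of the 6 genes, 5 passed the filter on low counts, 3 were called lower and 0 higher. Their median log2 fold was -0.79, against 0.09 over all genes tested. The classes came from expression in the same cells, so these p-values describe how the classes differ.

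Zic1 stood at 955, 863, 695 and 743 CPM in dividing cells of tumours 1 to 4. In neuronal cells it stood at 1448, 1305, 1702 and 1721. Every neuronal value lay above every dividing value, and the ratio was larger in tumours 3 and 4 (2.45 and 2.32) than in tumours 1 and 2 (1.52 and 1.51). The means were 814 ± 118 and 1544 ± 202 (SD, n = 4 tumours). The edgeR log2 fold of dividing against neuronal cells was -0.94 ± 0.22 (SE), with an adjusted p of 0.00021. In tumours 1 and 2 alone it was -0.66 with an edgeR adjusted p of 0.062, and in tumours 3 and 4 alone it was -1.30 with 3.98e-15. The difference between these pairs was not tested. Each pair is 2 tumours, so its p-values, here and for the genes below, are not stronger evidence than those of all 4.

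Zic4, the neighbour of Zic1, stood at 349, 336, 254 and 160 CPM in dividing cells and at 527, 428, 405 and 420 in neuronal cells. The classes did not overlap, and tumour 4 had the lowest dividing value and the widest ratio, 2.62 against 1.27 to 1.59 in the others. The log2 fold was -0.79 ± 0.24 (SE, edgeR adjusted p = 0.00559). Without tumour 4 it was -0.58 with an edgeR adjusted p of 0.173. With 2 markers as the threshold it was -0.52 with 0.239, so the Zic4 call rests on that tumour and on the class rule.

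Zic2 was the least detected of the 6, with 234 UMIs in 213 of the 3222 cells, and it did not pass the filter on low counts. Its levels were 45.5, 48.0, 80.2 and 64.0 CPM in dividing cells and 86.5, 36.9, 139 and 112 in neuronal cells. The classes overlapped, and tumour 2 had its lower value in neuronal cells, on 5 UMIs. With 4 markers as the threshold Zic2 was tested and lower in dividing cells, with a log2 fold of -1.08 ± 0.39 (SE, edgeR adjusted p = 0.024). In the fit of the dividing and neuronal sums alone it was tested and not called (-0.64, edgeR adjusted p = 0.212).

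Pax6 stood at 349, 256, 254 and 314 CPM in dividing cells and at 584, 560, 576 and 630 in neuronal cells. Its neuronal values lay close together, and all stood above the highest dividing value. The ratio was 1.67, 2.19, 2.27 and 2.01 in tumours 1 to 4. The means were 293 ± 46.3 and 587 ± 29.9 (SD, n = 4), with a log2 fold of -0.996 ± 0.23 (SE, edgeR adjusted p = 0.00016). Of the 5 genes tested in tumours 1 and 2 alone, only Pax6 was called (-0.98, edgeR adjusted p = 0.0148), beside 168 of 1462 genes lower. Pax6 was also called in tumours 3 and 4 alone (-1.12, edgeR adjusted p = 9.24e-06), beside 457 of 3691 genes lower.

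Barhl1 stood at 243, 336, 535 and 423 CPM in dividing cells and at 324, 324, 728 and 769 in neuronal cells. The classes overlapped. Within each class tumours 1 and 2 were lower than tumours 3 and 4, and within tumours 3 of the 4 had more in neuronal cells, with tumour 2 slightly lower. The ratio of neuronal to dividing cells was 1.34, 0.966, 1.36 and 1.82. The log2 fold was -0.48 ± 0.23 (SE) and was not called (edgeR adjusted p = 0.0923). It was called in tumours 3 and 4 alone (-0.76, edgeR adjusted p = 0.000696), without tumour 2 (-0.75, 0.00389), with at most 10% mitochondrial UMIs per cell (-0.63, 0.0148) and with at least 1000 UMIs per cell (-0.73, 0.0488). With the neuronal threshold of 6 the fold was -0.11 (edgeR adjusted p = 0.667), and the ratio was 0.936, 0.847, 1.07 and 1.43, above 1 in 2 of 4 tumours.

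Meis1 stood at 197, 256, 147 and 237 CPM in dividing cells and at 346, 317, 329 and 296 in neuronal cells. The classes did not overlap, but the log2 fold of -0.60 ± 0.26 (SE) was not called (edgeR adjusted p = 0.0656). It was called without tumour 2 (-0.79, edgeR adjusted p = 0.0168), with 4 markers as the threshold (-0.76, 0.0048), after thinning each cell to 500 UMIs (-0.76, 0.00867) and with a neuronal threshold of 6 markers (-0.73, 0.00182). Of the 6 genes, Zic1, Zic4, Pax6 and Meis1 had no overlap between the classes. Over all genes tested, 8.66% were lower in dividing cells without overlap.

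**Figure D1:**
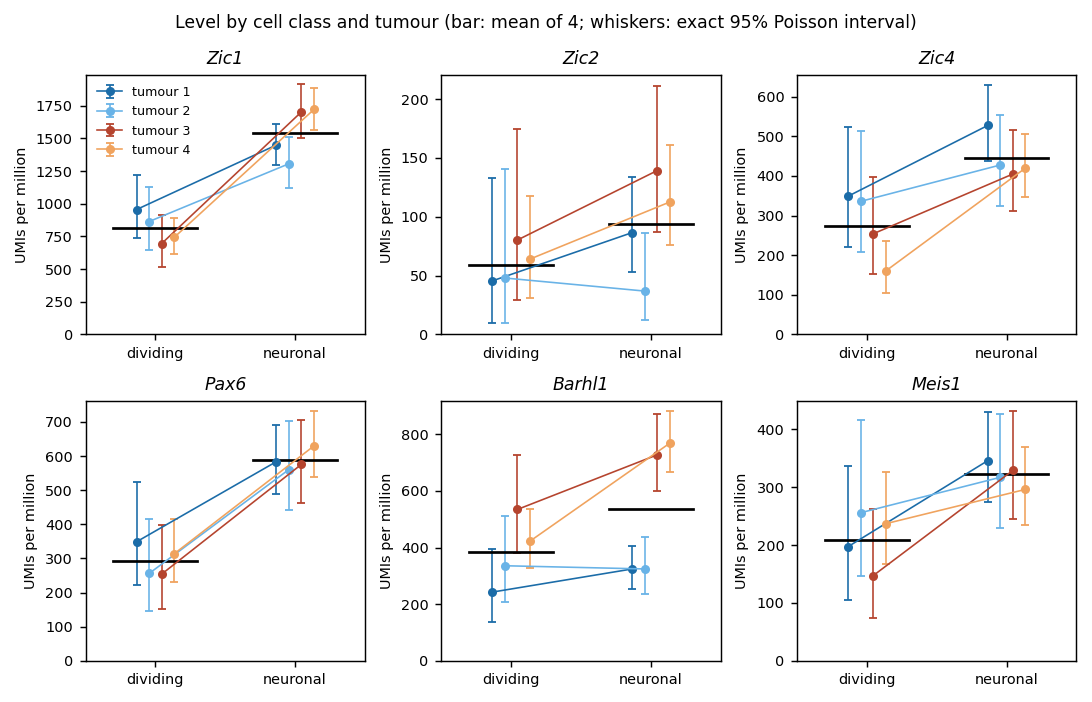
Level of each gene (y axis, CPM, from 0) in dividing and neuronal cells of tumours 1 to 4 (coloured points joined by tumour, whiskers the exact 95% Poisson interval, black bars the mean of 4). Zic1 and Pax6 rise in all 4 tumours from a mean of 814 to 1544 and of 293 to 587, while the Barhl1 values of tumours 1 and 2 stay at or below 336.

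The tumour block mattered for these calls. Both sums of a tumour come from the same animal, and without the block none of the 5 genes tested was called, with edgeR adjusted p-values from 0.172 to 0.729 and log2 folds from -1.01 to -0.45. Over all genes 136 were called without it. With DESeq2 (block kept), Zic1, Zic4 and Pax6 were called, with log2 folds of -1.06, -0.91 and -1.13, beside 236 of 1813 genes lower.

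**Figure D2:**
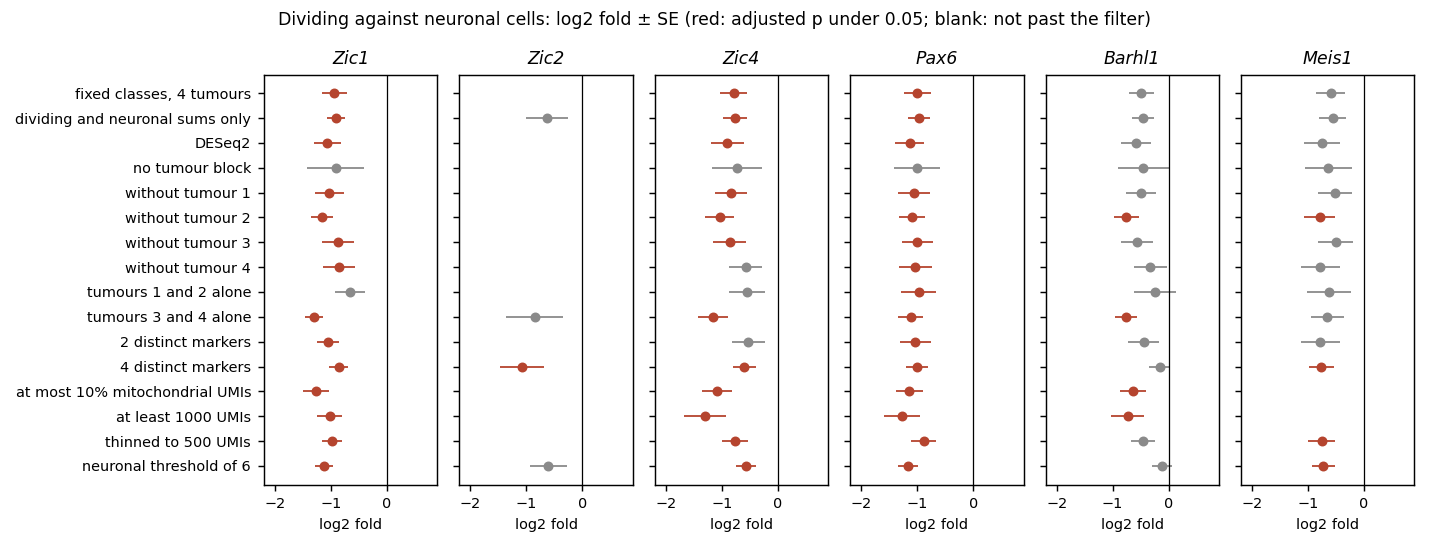
Log2 fold of dividing against neuronal cells (x axis) with its SE for each gene under the class rule as fixed and under 15 other settings (y axis), red where the adjusted p was under 0.05. All folds drawn lie below 0, from -1.30 to -0.66 for Zic1 and from -0.76 to -0.11 for Barhl1.

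Non-dividing cells without neuronal identity were rare under the fixed rule (at most 1 marker of either kind), with 2, 3, 11 and 16 cells in tumours 1 to 4. Of the 1646 mixed cells, 1579 had at least 3 markers of both kinds. Of the 5 genes tested, Zic1 was called lower in the few non-dividing than in neuronal cells (-1.33 ± 0.42, SE, edgeR adjusted p = 0.0253), against 9.1% of all genes lower. The median log2 fold of all genes in that fit was -0.69, with 165 genes lower and 2 higher, and with library size alone as the scaling it was -0.27, with 51 and 8. Zic1 was then not called (-0.91, edgeR adjusted p = 0.249), nor was it with DESeq2 (-0.80, 0.331), without the block (-1.51, 0.147), or without tumour 1 (-1.19, 0.121), 3 (-1.57, 0.0671) or 4 (-1.72, 0.0563). None of the 5 was called between dividing and non-dividing cells (edgeR adjusted p from 0.454 to 0.794), where 5.57% of all genes were. After the data were seen, the neuronal threshold was therefore set at 6 markers. Non-dividing then meant at most 1 dividing and 4 neuronal markers, and there were 37, 26, 45 and 80 such cells, beside 1228 dividing and 733 neuronal ones. These cells had a median of 3 neuronal markers in each tumour. Their neuronal markers summed to a mean of 5114 CPM, against 1460 in the non-dividing cells of the fixed rule and 4574 in the dividing cells of the new one, so the wider class holds cells with some neuronal transcripts. In tumours 1 and 2 the non-dividing sums held 24.5% and 21.2% mitochondrial UMIs, against 12.2% and 13.6% in the dividing sums. Astrocyte markers summed to 1309, 906, 169 and 571 CPM in non-dividing cells of tumours 1 to 4, against 583, 748, 209 and 323 in dividing cells. Oligodendrocyte-lineage markers summed to 1026, 852, 440 and 669 CPM against 402, 628, 480 and 478, and endothelial markers in tumour 2 to 373 against 54.0. The part of these values in the levels below was not tested.

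With that threshold, 4 of the 6 genes were lower in dividing than in neuronal cells, against 17.8% of 4175 genes tested. They were Zic1 (log2 fold -1.12), Pax6 (-1.16), Meis1 (-0.73) and Zic4 (-0.57). Without the block Zic1 and Pax6 alone of the 6 were called (edgeR adjusted p = 0.0331 and 0.0233), where 5.58% of all genes were lower. Leaving out tumour 3 ended the calls of Meis1 (0.0917) and Zic4 (0.077), tumours 1 and 2 alone did so too (0.326 and 0.426), and leaving out tumour 4 (0.156) and DESeq2 (0.067) ended that of Zic4.

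Zic1 and Pax6 in non-dividing cells lay below their levels in neuronal cells in every tumour. Zic1 stood at 531, 586, 1117 and 1175 CPM in non-dividing cells, against 840, 873, 725 and 791 in dividing and 1622, 1508, 1901 and 2009 in neuronal cells. The non-dividing level was 0.631 and 0.671 times the dividing one in tumours 1 and 2 and 1.54 and 1.49 times in tumours 3 and 4. The tumours with the lower ratios are those with the higher mitochondrial, astrocyte and oligodendrocyte-lineage sums in non-dividing cells. The log2 fold against neuronal cells was -1.02 ± 0.20 (SE, edgeR adjusted p = 5.27e-05), and that of dividing against non-dividing cells was -0.10 ± 0.21 (0.903). Without the block Zic1 was not called against neuronal cells (-1.08, edgeR adjusted p = 0.153).

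Pax6 in non-dividing cells stood at 389, 213, 271 and 441 CPM, against 312, 312, 249 and 301 in dividing and 645, 641, 631 and 700 in neuronal cells. No non-dividing value reached the neuronal range, and the log2 fold was -0.92 ± 0.25 (SE, edgeR adjusted p = 0.00634). The call was lost in 4 of 12 alternatives, without tumour 3 (-0.78, edgeR adjusted p = 0.132), in tumours 1 and 2 alone (-0.88, 0.311), without the block (-0.96, 0.231) and under the fixed rule (-1.62, 0.0605). Zic1 and Pax6 were the genes of the 6 called against neuronal cells in this fit, where 6.3% of 4175 genes were lower in non-dividing cells.

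The Barhl1 mean was highest in non-dividing cells in this setting, which was not called. It stood at 318, 160, 1185 and 947 CPM in non-dividing cells, where tumours 1, 3 and 4 had their highest Barhl1 values of the 3 classes and tumour 2 its lowest. In tumour 1 the values were close, at 294 in dividing and 275 in neuronal cells. Against neuronal cells the log2 fold was 0.48 ± 0.23 (SE, edgeR adjusted p = 0.2), and dividing against non-dividing cells gave -0.59 ± 0.22 (0.125). With at most 10% mitochondrial UMIs both were called (0.73 with an edgeR adjusted p of 0.031, and -0.78 with 0.03), over 142 non-dividing cells, as few as 6 in 1 tumour. Dividing against non-dividing was also called in tumours 3 and 4 alone (-0.93, edgeR adjusted p = 0.00326) and without tumour 2 (-0.79, 0.0172). In tumours 1 and 2 alone it had the other sign (0.33, 0.867), and under the fixed rule Barhl1 in non-dividing against neuronal cells also did (-0.23, 0.806).

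Meis1 in non-dividing cells stood at 212, 160, 169 and 245 CPM, with no overlap with neuronal cells (296 to 354) but no call (log2 fold -0.71 ± 0.32, SE, edgeR adjusted p = 0.163). Non-dividing levels lower than neuronal ones without overlap were found for 6.8% of all genes. Zic4 (141 to 479) and Zic2 (35.4 to 203) overlapped with both other classes, with edgeR adjusted p-values from 0.343 to 0.921. None of the 6 genes was called between dividing and non-dividing cells, a comparison in which 5.1% of genes passed. The ranges of dividing and non-dividing cells overlapped for all 6. The neuronal mean was the highest for Zic1, Zic4, Pax6 and Meis1, and for Zic2 (90.1 CPM) it lay within the spread of the non-dividing mean (89.2 ± 76.9). For Barhl1 the order of the means was non-dividing (652), neuronal (469) and dividing (428), with overlapping ranges.

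**Figure D3:**
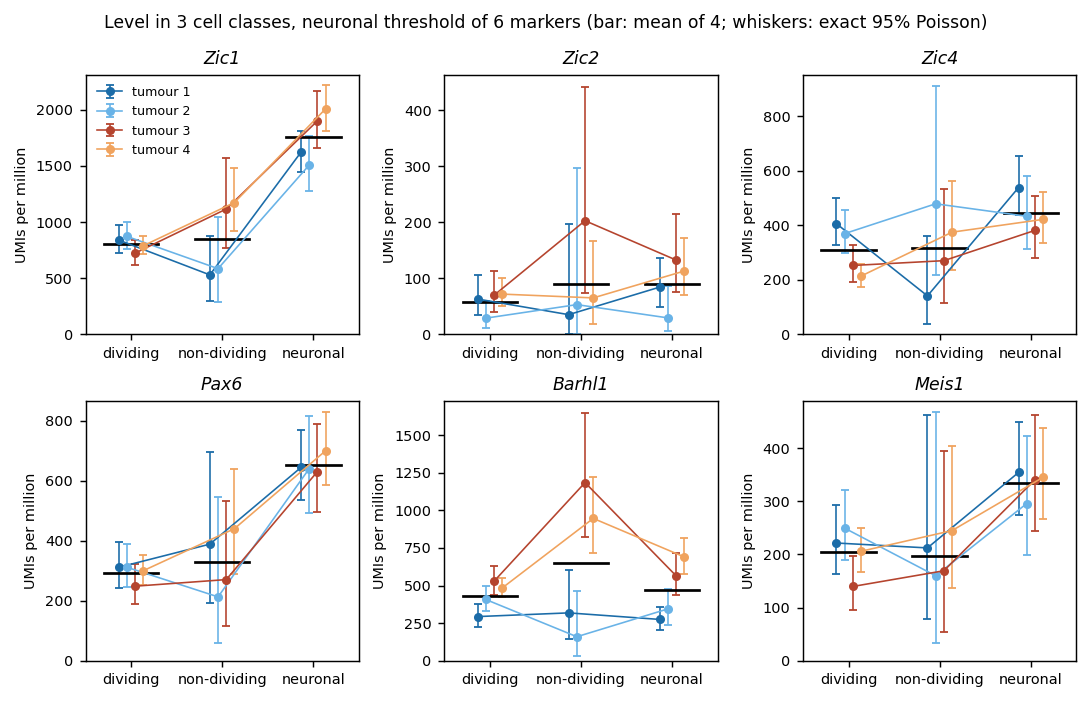
Level of each gene (y axis, CPM) in dividing, non-dividing and neuronal cells with the neuronal threshold of 6 (points tumours 1 to 4, whiskers the exact 95% Poisson interval, bars the mean of 4). Zic1 and Pax6 are highest in neuronal cells of every tumour, and Barhl1 in non-dividing cells reaches 1185 and 947 in tumours 3 and 4.

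Among cells with at most 1 dividing marker, Zic1 and Pax6 were higher at 8 or more than at 2 or 3 neuronal markers in 4 of 4 tumours, Zic2 and Meis1 in 3, and Barhl1 and Zic4 in 1 each. For this description each cell was thinned to 500 UMIs, and the 4 tumours were pooled over 123, 195, 192, 231 and 370 cells with 0 or 1, 2 or 3, 4 or 5, 6 or 7, and 8 or more markers. Zic1 stood at 1008, 862, 1198, 1896 and 1914 CPM over these steps. Its intervals at 6 or 7 (1653 to 2165) and at 8 or more (1719 to 2124) overlapped, and both lay above those of the lower steps. In each of the 4 tumours Zic1 was higher at 8 or more markers (1698 to 2111) than at 2 or 3 (571 to 978).

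Pax6 went from 211 to 410, 500, 545 and 708 CPM over the same steps. Neighbouring steps overlapped in their intervals, and the lowest (113 to 361) and the highest (592 to 840) did not. Barhl1 stood at 602, 779, 604, 468 and 465, with its highest value at 2 or 3 markers (614 to 976) above the interval at 8 or more (372 to 574). Tumours 3 and 4 stood highest at that step (1412 and 841), and 3 of 4 tumours had more Barhl1 at 2 or 3 than at 8 or more markers. The same count held for Zic4, which went from 356, 786, 412 and 432 at 2 or 3 markers to 587, 300, 316 and 426 at 8 or more. Zic4 (309 to 462), Meis1 (185 to 390) and Zic2 (32.5 to 119) had overlapping intervals at the first and last steps. The lowest step held as few as 17 cells in 1 tumour, and no test was made over these pooled cells.

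**Figure D4:**
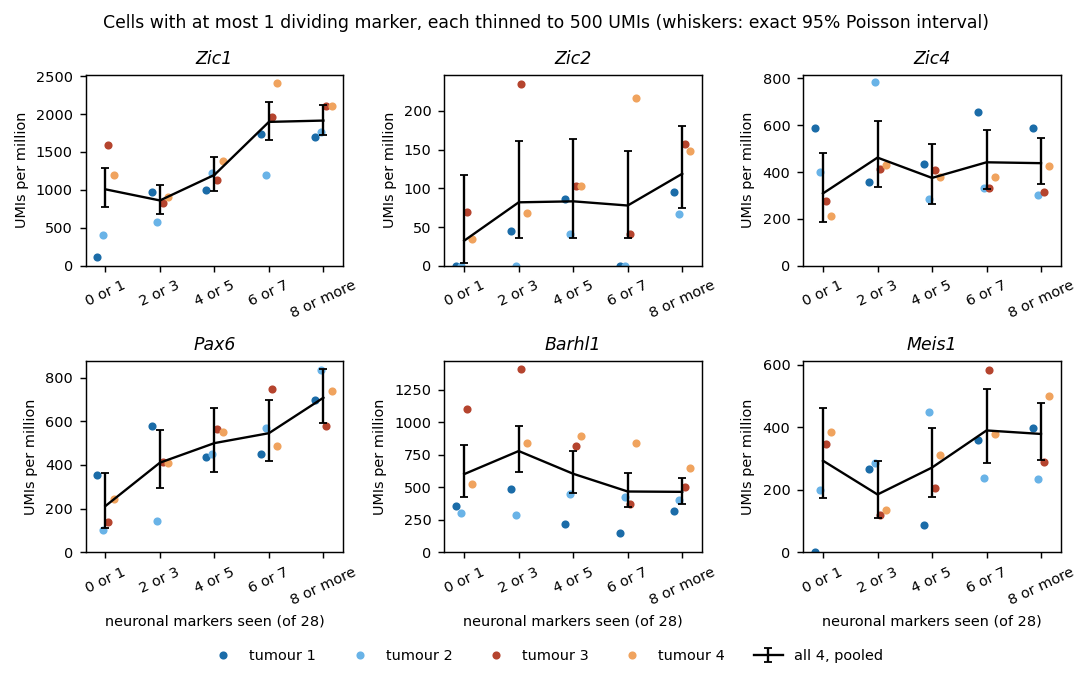
Level of each gene (y axis, CPM after thinning to 500 UMIs) against the number of neuronal markers seen (x axis) in cells with at most 1 dividing marker (points tumours, black line all cells pooled with the exact 95% Poisson interval). Zic1 goes from 862 at 2 or 3 markers to 1914 at 8 or more and Barhl1 from 779 to 465.

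Among dividing cells, those with more S-phase than G2 and mitosis markers and those with more of the latter had overlapping ranges over the 4 tumours for all 6 genes. Barhl1 was 457 ± 84.5 CPM in the S-phase set and 346 ± 151 in the G2 and mitosis set (SD, n = 4). Zic1 was 863 ± 252 and 801 ± 89.8, Pax6 284 ± 36.4 and 302 ± 84.3, and Meis1 211 ± 77.2 and 212 ± 88.8. Zic4 was 311 ± 88.6 and 257 ± 82.4, and Zic2 ranged from 0 to 81.4 and from 47.1 to 65.5. No test was made between these sets.

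In single cells, detection followed the levels. After thinning to 500 UMIs, Zic1 had a UMI in 29.8% ± 4.7 of dividing and 49.4% ± 5.3 of neuronal cells (SD, n = 4), and at full depth in 44.6% and 61.0%. Pax6 was seen in 12.5% ± 4.0 and 24.5% ± 0.34, and Meis1 in 10.5% ± 2.9 and 15.0% ± 0.83. Barhl1 was seen in 16.7% ± 5.4 and 22.0% ± 9.8, Zic4 in 13.4% ± 3.9 and 18.1% ± 2.3, and Zic2 in 2.8% ± 0.55 and 4.5% ± 2.2. At least 1 of the 6 was seen in 59.2% ± 1.9 of dividing and 78.9% ± 4.8 of neuronal cells, and unthinned in 75.5% and 87.7%. Median depths were 759 and 717 UMIs. After thinning, at least 2 of the 6 were seen in 22.5% of dividing and 41.4% of neuronal cells over all tumours, and no dividing, neuronal or mixed cell showed all 6. Of mixed cells, 65.0% ± 1.3 showed at least 1. Zic1 stood at 864, 964, 863 and 943 CPM in mixed cells, between the dividing and neuronal values in tumours 2 to 4 and below both in tumour 1.

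Few cells carried glial, immune or vessel markers without reaching 3 markers of division or of neurons. Of the 35 that did, 13 were microglia-like and 10 endothelial-like. In these 23 cells (median 997 UMIs), 2 had a UMI of any of the 6 after thinning, or 8.7% (exact 95% interval 1.07% to 28%), against 59.6% of dividing and 79.5% of neuronal cells pooled. By tumour the share was 0 of 10, 1 of 6, 0 of 2 and 1 of 5 cells (9.17% ± 10.7, SD, n = 4), and with the neuronal threshold of 6 it was 4 of 25 cells in all (16%). None of the 23 showed 2 or more. Over all 35 cells 9 had a UMI of any of the 6 (25.7%, interval 12.5% to 43.3%), among them both mural-like cells and 1 of 2 fibroblast-like cells, and unthinned 12 had one (34.3%). The class rule places a barcode with 3 or more dividing or neuronal markers among the mixed cells, which can hold this share low. Zic2, Pax6, Barhl1 and Meis1 had 0 of 23, which allows a share with a UMI at 500 UMIs of up to 13.0% and sets no limit on cells that express the gene. Unthinned, Barhl1 had a UMI in 2 of the 23 and any of the 6 in 4 (17.4%, interval 4.95% to 38.8%).

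Microglia-like cells held 0 UMIs of Zic1 among 15225, which allows up to 197 CPM (3 counts), below the 695 to 955 of the dividing sums. They held 1 UMI each of Zic4 and Barhl1. Endothelial-like cells held 3 UMIs of Zic1 in 1 cell, or 150 CPM (exact 95% interval 30.8 to 437). Both mural-like cells had Zic1, with 3 UMIs among 1782, or 1684 CPM with an interval of 347 to 4920. The intervals cover counting error only, and 2 cells set no level for the type.

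Glial cells were few as well. The 4 oligodendrocyte-like and 4 astrocyte-like cells of the fixed rule held 1 UMI of Zic1 per class, which is 370 CPM (interval 9.37 to 2062) and 223 CPM (5.66 to 1245). With the neuronal threshold of 6 there were 20 and 12 such cells. Zic1 then stood at 208 CPM in oligodendrocyte-like cells (interval 56.7 to 533) and at 166 in astrocyte-like cells (45.3 to 425). Both upper bounds lay below the 725 that was the lowest dividing value of that setting, but those of the fixed rule did not. In tumour 1, 6 astrocyte-like cells gave 18314 of the 24073 UMIs of that class. Over all 61 glial, immune and vessel cells of that setting Pax6 had 1 UMI and Zic2 had 0. The part of granule-lineage RNA in their counts was not tested.

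**Figure D5:**
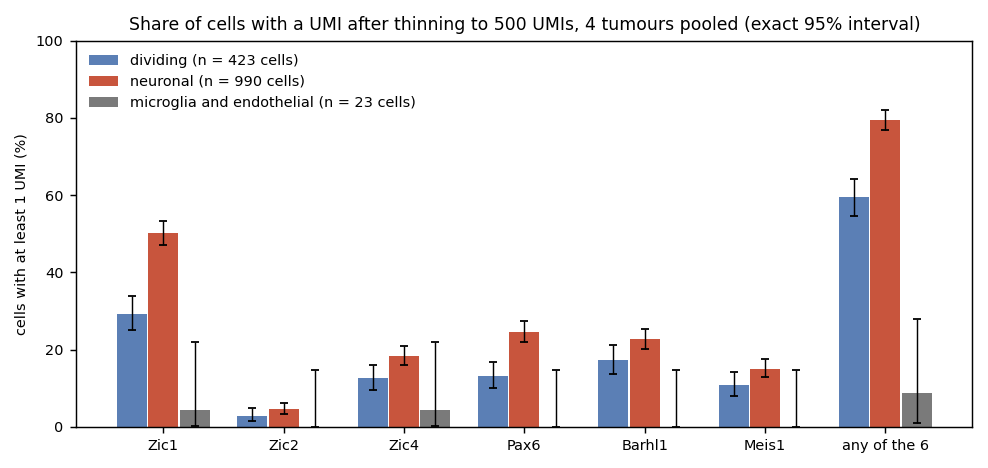
Share of cells with at least 1 UMI (y axis, percent, from 0) of each gene and of any of the 6 after thinning to 500 UMIs, in dividing, neuronal, and microglia-like and endothelial-like cells of all tumours (bars, whiskers the exact 95% binomial interval). Any of the 6 was seen in 59.6%, 79.5% and 8.7%.

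Across tumours, Barhl1 differed between the 2 pairs of libraries. Over all cells it stood at 294, 326, 573 and 538 CPM, with Poisson intervals of 257 to 335 and 286 to 370 in tumours 1 and 2 and of 510 to 641 and 498 to 580 in tumours 3 and 4. The mean of tumours 3 and 4 was 1.79 times that of tumours 1 and 2, and 1.61 times with mitochondrial UMIs left out of the total. Within neuronal cells it was 2.31 times and within dividing cells 1.66 times. The mitochondrial share moved with this difference in the other direction, and its part beyond the total was not tested.

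Zic2 was also higher in tumours 3 and 4 (88.9 and 90.9 CPM over all cells) than in tumours 1 and 2 (61.3 and 35.9). Zic4 was lower there, at 316 and 258 against 412 and 357. The other genes differed less over all cells. Zic1 stood at 1028, 992, 1096 and 1075, Pax6 at 402, 402, 350 and 394, and Meis1 at 264, 268, 236 and 254. None of the 6 overlapped between the pairs, and neither did 86% of 1813 genes, so the separation is not particular to the 6. With mitochondrial UMIs left out of the total Zic1 was lower in tumours 3 and 4, where it was higher with them. Within classes (all UMIs), Zic1 in tumours 3 and 4 was 0.791 times its level in tumours 1 and 2 in dividing cells. In neuronal cells it was 1.24 times. The labels give the 4 tumours as 1 group, so no test was made between them, and the pairs are described by their values alone.

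Other genes of the same families were mostly too sparse to test. Of 14 such genes, 12 were in the tables and 2 passed the filter, with 0 called. Zic5, a further Zic zinc finger gene, had a log2 fold of -0.74 ± 0.31 (SE, edgeR adjusted p = 0.0502) in dividing against neuronal cells. With the neuronal threshold of 6, 5 of the 14 were tested and 1 of them, Zic5, was called lower in dividing cells, beside 17.8% of all genes (-0.74 ± 0.24, SE, edgeR adjusted p = 0.0103). Meis2 had 0 UMIs in the dividing, non-dividing and neuronal cells of the fixed rule.

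Of 22 other transcription factors of the granule lineage, 20 were in the tables and 12 were tested. Lower in dividing than in neuronal cells were 8 and higher were 0, beside 14.5% of all genes lower. The median log2 fold was -0.88 against 0.09 over all genes. Both include Neurod1, which helped to form the classes. The neuronal basic helix-loop-helix genes Nhlh1 and Nhlh2 fell by 2.24 and 1.93 on the log2 scale, Sox4 by 1.25, Uncx by 1.19, the nuclear factor I gene Nfix by 0.93, the E-protein gene Tcf4 by 0.84 and the LIM homeodomain gene Lhx1, which is also the GABAergic interneuron marker given above, by 0.83 (edgeR adjusted p from 8.34e-14 to 0.00137). Neurod1, 1 of the 28 neuronal markers, was called as well (-3.85). With the neuronal threshold of 6, 16 were tested, 11 were lower, beside 17.8% of all genes, and 2 were higher in dividing cells, beside 17% of all genes. The 2 were Atoh1 (log2 fold 1.05), which specifies granule progenitors, and Hes6 (1.27). Zic1 and Pax6 thus had folds near those of Nfix and Tcf4 and smaller than those of Nhlh1 and Nhlh2.

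Likeness of pattern was described over the 12 sums of 4 tumours and 3 classes, as Pearson's r of log2 levels after taking off each tumour's mean, with no test because the sums share tumours, depth and classes. Under the fixed rule the small non-dividing sums weigh heavily. The 3 most alike were Soga3, App and D4Wsu53e for Zic1 (r 0.989 to 0.991), Tmsb4x, Frmd4a and Tuba1a for Zic4 (0.975 to 0.986), Fnbp1l, Chgb and Klf7 for Pax6 (0.911 to 0.950), Mdh2, Eef2 and Tsn for Barhl1 (0.967 to 0.976) and Tsc22d1, Tmsb10 and Tia1 for Meis1 (0.995 to 0.996). With the neuronal threshold of 6 they were Ina, Tcf4 and A330076H08Rik for Zic1 (0.965 to 0.977), Cnrip1, Tnrc6c and Srrm4 for Pax6 (0.973 to 0.983), Serinc1, Tmsb10 and Baz2b for Meis1 (0.959 to 0.969), Narf, Ppp2r3a and Herc1 for Zic4 (0.955 to 0.972) and Gpatch1, Erbb2ip and Slc25a23 for Barhl1 (0.910 to 0.948). Of these names 1, Tmsb10 for Meis1, was shared between the rules. Among the 6 themselves, in that setting, Pax6 and Meis1 had an r of 0.945, Zic1 and Meis1 0.913, and Zic1 and Pax6 0.899. Barhl1 had an r between -0.197 and 0.201 with the others. Under the fixed rule Zic1 and Pax6 had 0.522, Pax6 and Meis1 0.594, and Barhl1 and Zic1 0.801, while Zic1 and Meis1 had 0.919.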

How the data were processed

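Drop-seq UMI counts per gene and barcode were deposited by the authors, one table per tumour. STAR and mm10 are named in the submitters' processing notes, without roles or versions, and the counting tool and strand are not given in the sources used here. The 6 tables, with 11203 barcode columns, that no label ties to a sample described here were not used.

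Barcodes with at least 500 UMIs were kept (528971 to 1253618 UMIs per tumour), and classes followed distinct markers as described. Scrublet (expected rate 6%) marked 14 cells, which were kept, so doublets remain possible among mixed cells. UMIs of each class were added up within a tumour, and the sums were tested with edgeR 4.0.16 (TMM, filterByExpr, tumour as a block, quasi-likelihood test, Benjamini-Hochberg adjustment over all genes tested, threshold 0.05) in R 4.3.3, with DESeq2 1.42.0 as an alternative. Both sums of a tumour come from the same animal, and same-tumour deviations correlated at 0.637 to 0.807 under the fixed rule. With the neuronal threshold of 6 they correlated at 0.510 to 0.731. On simulated data edgeR recovered 97.5% of 4-fold and 35.1% of 2-fold changed genes between dividing and neuronal sums (1915 genes). The SE given with an edgeR fold is the absolute log2 fold divided by the square root of the test's F statistic, since edgeR reports none. Single-cell shares used 1 random thinning to 500 UMIs. Intervals (95%, exact) and the limit that a count of 0 allows (3 counts) cover counting error only. Nothing says that the tumours are more than separate samples. With the tumour block, p-values measure the spread of the class difference over tumours. Without it they also take in the spread of levels between tumours.

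The genes, lists and class rule were chosen with earlier results of these data known, and the threshold of 6 after these counts were seen. Text names the 6 genes, called or tested list genes and the 3 most alike genes with a mean of at least 50 CPM. A few genes that this rule names, and the genes most like Zic2, are not reported here.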

Additional observations from a re-analysis of the deposited data

Results flagged for a closer look

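Of 60 groups of 4 tumours examined, 2 had a tumour far from the other 3 by Dixon's criterion, and chance flags about 1 in 20 groups. Pax6 over all cells stood at 350 CPM in tumour 3, against 394 to 402 in the others. The ratio of Zic2 in neuronal to dividing cells was 0.769 in tumour 2, against 1.74 to 1.90 in the others, on 5 and 3 UMIs.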

How the results depend on the processing

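Log2 folds of the 5 genes tested between dividing and neuronal cells under the fixed rule (all but Zic2) kept their sign in the 88 alternative values, of which 73 kept their side of the threshold, 7 lost a call and 8 gained one. The number of genes called in that comparison (577) was 374 with DESeq2, 1203 without the filter, 136 with no replicate block, 318 in tumours 1 and 2 alone, 891 in tumours 3 and 4 alone, 981 with 4 markers, 321 with at least 1000 UMIs, 946 with dividing and neuronal sums only, 1450 with the neuronal threshold of 6, and 347 (without tumour 4) to 680 when 1 tumour was left out. For non-dividing against neuronal cells (167) it was 59 with library size alone, 23 with DESeq2, 774 without the filter, 57 with no replicate block, 8 in tumours 1 and 2, 84 in tumours 3 and 4, 73 with 2 and 278 with 4 markers, 92 with at most 10% mitochondrial UMIs, 18 with at least 1000 UMIs, 420 with the threshold of 6 and 62 to 149 when 1 tumour was left out. For dividing against non-dividing cells (101) the same settings, in that order but without the marker numbers, gave 28, 2, 515, 15, 9, 41, 33, 9, 213 and 27 to 55. With the threshold of 6, non-dividing against neuronal cells (420) gave 251 with DESeq2, 16 with no replicate block, 101 in tumours 1 and 2 and 178 to 436 (222 without tumour 3) when 1 tumour was left out, and dividing against non-dividing cells (213) gave 98, 59, 65 and 115 to 225 (135 without tumour 1), and 126 with at most 10% mitochondrial UMIs. The causes were not tested.

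The folds whose sign turned were not called in either setting. With the threshold of 6, Barhl1 in dividing against neuronal cells was 0.22 in tumours 1 and 2 and 0.077 without tumour 4. For non-dividing against neuronal cells Zic2 was 0.21 without tumour 4, and Barhl1 was -0.12 in tumours 1 and 2 and -0.23 under the fixed rule. For dividing against non-dividing cells, with the threshold of 6 unless the fixed rule is named, Zic1 was 0.064 without tumour 3, 0.092 without tumour 4, 0.53 in tumours 1 and 2 and 0.39 under the fixed rule. Zic2 was 0.20 without tumour 3. Zic4 was 0.041 with no replicate block, 0.23 without tumour 4, 0.38 in tumours 1 and 2 and 0.63 under the fixed rule. Pax6 was 0.62 under the fixed rule, and Barhl1 was 0.33 in tumours 1 and 2. Meis1 was 0.046 with no replicate block, 0.035 without tumour 3, 0.082 without tumour 4, 0.21 in tumours 1 and 2, 0.22 with at most 10% mitochondrial UMIs and 1.13 under the fixed rule. Upper-quartile scaling could not be fitted under the fixed rule. Zic2 rests on 234 UMIs. The non-dividing class of the fixed rule held 32 cells, 107 after thinning to 500 UMIs and 1 with at least 1000 UMIs.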
